A study of Homo sapiens with 6 samples.

Results

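The proteasome genes were followed in MDA-MB-231 cells, a human breast cancer cell line of basal type that lacks the oestrogen and progesterone receptors, after siRNA-1 against ERBBride (3 libraries) and after the control siRNA, siCTRL (3 libraries). All 6 libraries came from the same cell line, transfected with a small interfering RNA in both groups, and the groups differed by the siRNA alone according to the labels. The members were all genes of the count table whose symbol is PSM followed by a letter from A to G and a number, plus POMP. The rule found 51 of the 20042 genes in the table. It took in 7 alpha and 7 beta subunits of the core particle, 3 immunoproteasome subunits, 2 tissue-specific subunits, 9 base and 8 lid subunits of the regulatory particle, 5 activators or inhibitors and 8 assembly factors. It also took in PSMC3IP and PSME3IP1, whose symbols match but which are not components of the proteasome, and they are given apart.

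The proteasome is the protease that degrades proteins tagged with ubiquitin. Its core particle is a stack of rings in which outer alpha rings gate the entry and inner beta rings hold the active sites. A regulatory particle caps the core: the lid and base bind and deubiquitinate the substrate, and the ring of ATPases in the base unfolds it. Immunoproteasome subunits replace the constitutive active subunits after interferon signalling and change which peptides are cut, and other activators can take the place of the regulatory particle. When proteasome activity is short, the transcription factor NFE2L1 (also called NRF1) is known to raise the transcription of most subunit genes together.

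Total counts were 14153969, 15014434 and 14385650 in siRNA-1 libraries 1, 2 and 3, and 14847527, 12813706 and 13853510 in siCTRL libraries 1, 2 and 3. Counts were scaled to the library size, with a TMM correction (trimmed mean of M-values), and are given as CPM, where 3 counts corresponded to at most 0.233 CPM. siCTRL 2 stood apart: chi-square per gene was 11.3 and 11.4 in its pairs with the other siCTRL libraries, against 2.12 to 2.39 in the pairs of siRNA-1 libraries and 2.27 between siCTRL 1 and 3. Of the 46 tested proteasome components, 32 (69.6%) were lowest among the siCTRL libraries in siCTRL 2, compared with 41.0% of all genes tested, so counts are given below also without that library. The level of ERBBride was not analysed here, so the knockdown itself was not checked. Vimentin (VIM) averaged 1676 CPM in siRNA-1 cells and 2652 CPM in siCTRL cells. Of the luminal markers, PGR had no counts, FOXA1 had 3 and ESR1 had 6 over all libraries, while GATA3 averaged 4.40 CPM in siRNA-1 cells and 11.2 CPM in siCTRL cells. Of the leukocyte markers, CD3E had no counts and PTPRC had 37, but CD68, which other cells also express, averaged 178 CPM in siRNA-1 cells and 159 CPM in siCTRL cells. Of the endothelial markers, CDH5 had no counts, VWF had 18, and PECAM1 averaged 4.11 CPM in siRNA-1 cells and 7.46 CPM in siCTRL cells. The part of these markers in the results below was not tested. In bulk RNA a change per cell and a change in the share of cells that express a gene cannot be told apart. The labels call the libraries biological replicates without saying what was kept separate, so p-values measure the spread between these samples.

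Not every member could be measured equally well. A set of 6 members had more than 40% of their coding bases covered by exons of another annotated gene: PSMA2 (97.1%), PSMA1 (88.6%), PSMA6 (70.4%), PSMD9 (58.7%), PSMB10 (58.3%) and PSMC1 (47.7%). The other gene lay on the same strand for the first 5 of these, and for PSMC1 it was NRDE2 on the opposite strand. Their mean raw counts lay between 0.167 and 246, whereas those of the 41 other components, without the tissue-specific PSMA8 and PSMB11, lay between 455 and 8396. PSMA2, an essential core subunit, had 1 count in all 6 libraries together. The genes that cover these coding bases on the same strand had 0 to 12 counts in total, and NRDE2 had 1929. The part of the counting rule in these low values was not tested, since neither the labels nor the submitters' processing notes give its settings. The levels of these 6 genes are uncertain, and differences in them rest on the reads that remained.

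**Figure D1:**
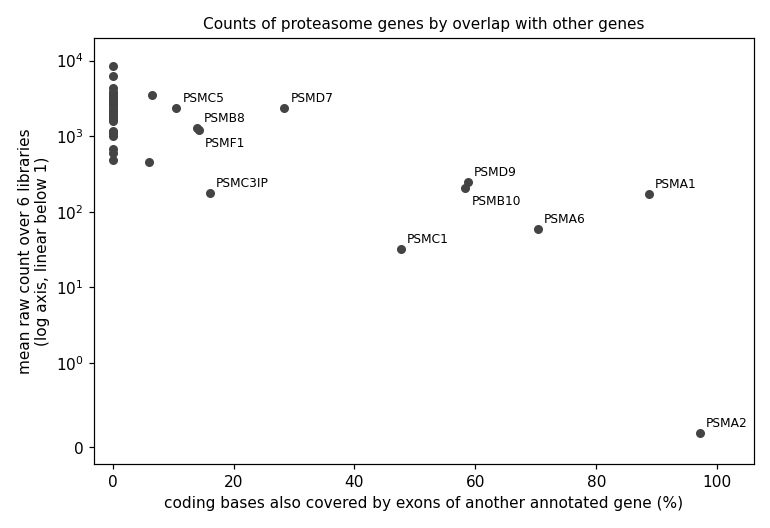
Mean raw count over the 6 libraries on a log axis that is linear below 1, against the share of coding bases that exons of another annotated gene also cover, in percent. Each point is 1 proteasome gene, without PSMA8 and PSMB11. The 6 genes above 40% lie between 0.167 and 246 counts.

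Most of the proteasome genes were higher after siRNA-1, each by a modest amount. Of the 48 members with enough counts to test, 29 rose, 9 fell and 10 did not pass, at an adjusted p under 0.05 in edgeR's quasi-likelihood test with p-values adjusted by Benjamini-Hochberg across the 12440 genes tested. The siRNA changed a large part of the transcriptome, with 62.5% of all genes tested called, 31.5% higher and 31.0% lower. Among the 48 members the shares were 79.2% called, 60.4% higher and 18.8% lower, with the excess among the rises. Their median log2 fold change was 0.25, and that of all genes was 0.006. Without siCTRL 2 the count was 30 higher and 9 lower, with a median of 0.19, against 68.7% called, 34.5% higher and 34.3% lower of all genes. Within the classes of components only the counts of the lid (6 higher) and of the activators (4 higher) differed from those given below. The siRNA-1 and siCTRL libraries did not overlap in 41 of the 48 members (85.4%), compared with 67.6% of all genes tested. The called members moved by 0.16 to 1.95 on the log2 scale in either direction. PSMD10 was the only member whose level changed by 2-fold or more, and it fell. Of all genes, 8.14% fell by at least 2-fold and 1.97% rose by as much.

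**Figure D2:**
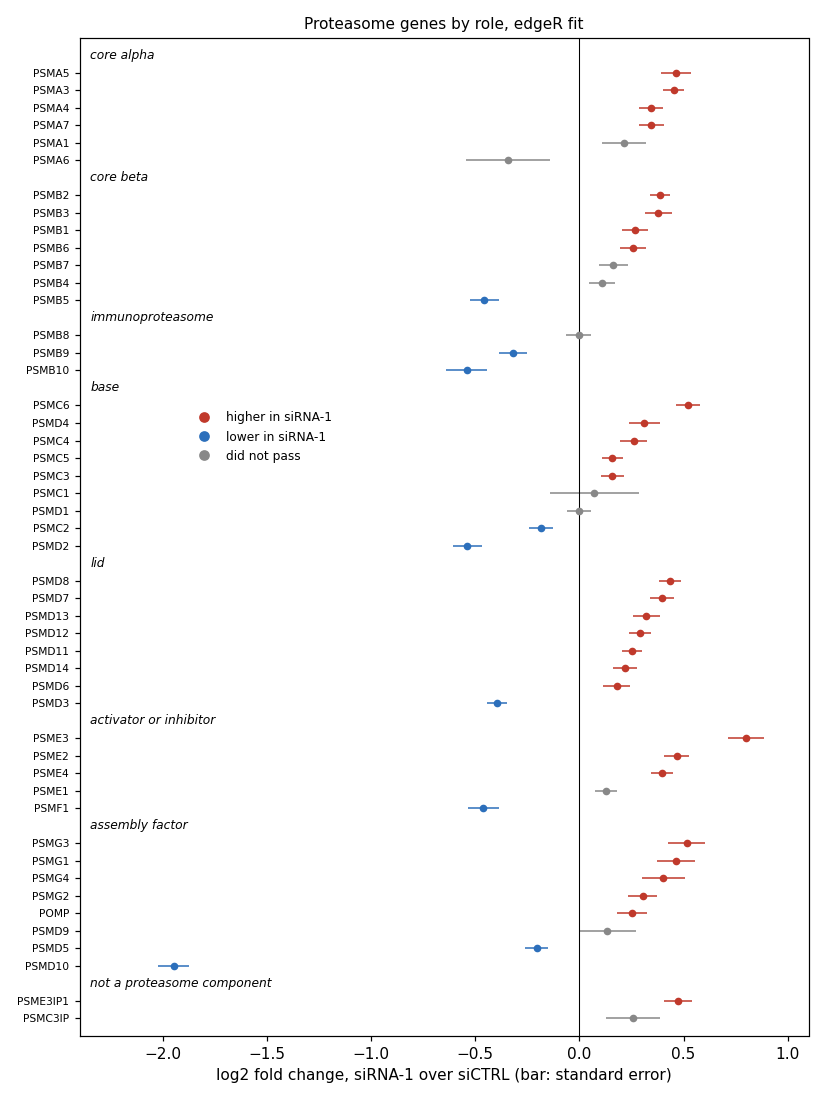
Log2 fold change of siRNA-1 over siCTRL for the 48 tested members, by role, with bars for the standard error of the edgeR fit (3 libraries a group). Rises crowd between 0.16 and 0.80, and 1 or more members fell in every class of component except the core alpha ring.

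**Figure D3:**
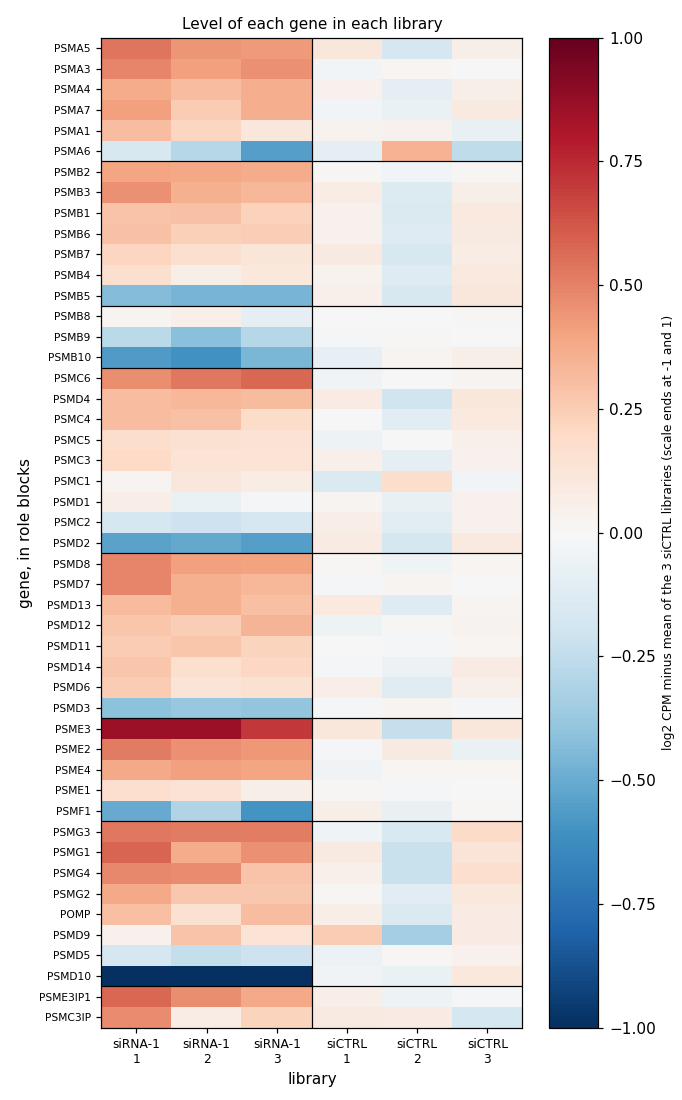
Log2 CPM of each tested member in each library, minus the mean of the siCTRL libraries, with siRNA-1 libraries on the left and siCTRL libraries on the right and colours ending at -1 and 1. Many members are below the siCTRL mean in siCTRL 2, and PSMD10 reaches the end of the scale in all 3 siRNA-1 libraries.

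The summed level rose in some parts of the complex and not in others. The tested core alpha subunits summed to 1146 ± 43.8 CPM in siRNA-1 cells and 879 ± 42.4 CPM in siCTRL cells (SD, n = 3 each), a ratio of 1.30. The activators and inhibitor summed to 909 ± 37.0 CPM in siRNA-1 cells and 703 ± 23.1 CPM in siCTRL cells, a ratio of 1.29. The lid summed to 1546 ± 30.1 CPM in siRNA-1 cells and 1317 ± 29.3 CPM in siCTRL cells, a ratio of 1.17. The core beta subunits summed to 1449 ± 32.6 CPM in siRNA-1 cells and 1285 ± 97.2 CPM in siCTRL cells, a ratio of 1.13. These sums were separate in every library. The base, by contrast, summed to 1873 ± 19.1 CPM in siRNA-1 cells and 1967 ± 144 CPM in siCTRL cells, a ratio of 0.952. Its siRNA-1 libraries summed to 1894, 1868 and 1857 CPM and its siCTRL libraries to 2034, 1802 and 2065 CPM, so the groups overlapped through siCTRL 2 alone. PSMD2 alone made up the largest share of that sum and fell. All 46 components together summed to 7551 ± 153 CPM in siRNA-1 cells and 6781 ± 369 CPM in siCTRL cells, a ratio of 1.11. The lowest control was siCTRL 2 in that sum, at 6362 CPM beside 6925 and 7055 CPM in siCTRL 1 and 3. The same held for core beta, at 1173 CPM beside 1326 and 1354 CPM. These ratios were not computed without siCTRL 2.

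In the outer ring of the core, 4 of the 6 tested alpha subunits rose, none fell, and the median log2 fold change was 0.34 (0.29 without siCTRL 2). PSMA5, a structural subunit of the ring, had 272, 255 and 252 CPM in siRNA-1 libraries 1, 2 and 3, and 203, 167 and 195 CPM in the siCTRL libraries. Every siRNA-1 library lay above every siCTRL library, with siCTRL 2 lowest. The log2 fold change was 0.46 (SE 0.072, edgeR adjusted p = 0.000150). PSMA3 was almost as much higher and varied less, with 188, 178 and 184 CPM in siRNA-1 libraries and 132, 136 and 134 CPM in siCTRL libraries, a log2 fold change of 0.45 (SE 0.051, edgeR adjusted p = 1.18e-05). PSMA4 and PSMA7 both rose 1.27-fold. PSMA7 had the highest CPM of the 4 alpha subunits that rose, at 493 ± 26.6 CPM in siRNA-1 cells and 388 ± 22.5 CPM in siCTRL cells. PSMA1 and PSMA6 did not pass (log2 fold changes 0.21 and -0.34, edgeR adjusted p = 0.10 and 0.157), and both belong to the genes with most of their coding bases shared. PSMA8, the alpha subunit of the testis proteasome, and PSMB11, the beta subunit of the thymus, had 0 counts in all libraries.

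The constitutive beta subunits split at the active sites. PSMB5 carries the chymotrypsin-like activity, which the proteasome inhibitor bortezomib mainly blocks. It had 116, 114 and 114 CPM in siRNA-1 libraries, against 163, 140 and 169 CPM in siCTRL libraries, and so was lower in each siRNA-1 library than in any control. Its log2 fold change was -0.46 (SE 0.070, edgeR adjusted p = 0.000126). The gene lies on chromosome 14 from 23016543 to 23035230 on the minus strand (GRCh38). PSMB6, which carries the caspase-like activity, was higher, with 148, 142 and 144 CPM in siRNA-1 libraries and 124, 110 and 129 CPM in siCTRL libraries (log2 fold change 0.26, SE 0.064, edgeR adjusted p = 0.00407). PSMB7, which carries the trypsin-like activity, had 261, 251 and 245 CPM in siRNA-1 libraries and 239, 201 and 236 CPM in siCTRL libraries. The PSMB7 libraries did not overlap, but the difference missed the threshold (log2 fold change 0.16, edgeR adjusted p = 0.0552). Without siCTRL 2 the PSMB7 value was 0.073 (edgeR adjusted p = 0.129).

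Among the beta subunits without an active site, PSMB2 rose most. It had 218, 217 and 215 CPM in siRNA-1 libraries and 167, 163 and 167 CPM in siCTRL libraries, and in neither group did the libraries differ by more than a few CPM. Its log2 fold change was 0.39 (SE 0.049, edgeR adjusted p = 2.99e-05). PSMB3 rose 1.30-fold and PSMB1 rose 1.20-fold. PSMB4 overlapped between the groups and did not pass (log2 fold change 0.11, edgeR adjusted p = 0.160). In all, 4 of the 7 beta subunits rose and 1 fell.

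The immunoproteasome subunits did not rise with the others. PSMB8, which replaces PSMB5, had 91.1, 92.8 and 83.6 CPM in siRNA-1 libraries and 89.1, 89.0 and 90.2 CPM in siCTRL libraries, and the groups overlapped (log2 fold change -0.00, edgeR adjusted p = 0.957). PSMB9, which replaces PSMB6, had 38.9, 35.1 and 38.5 CPM in siRNA-1 libraries and 46.4, 47.3 and 46.8 CPM in siCTRL libraries. PSMB9 was thus lower in every siRNA-1 library, with a log2 fold change of -0.32 (SE 0.068, edgeR adjusted p = 0.00151). PSMB10, which replaces PSMB7, had 11.7, 11.5 and 12.7 CPM in siRNA-1 libraries and 16.4, 17.7 and 18.1 CPM in siCTRL libraries. It too was lower throughout (log2 fold change -0.54, SE 0.098, edgeR adjusted p = 0.000478), on counts that its overlap with another gene makes uncertain. PSMB8 and PSMB9 overlap on chromosome 6, from 32840717 to 32844703 on the minus strand and from 32844136 to 32859585 on the plus strand. Their exons have 139 bases in common, and the antisense gene PSMB8-AS1 covers 14.0% of the coding bases of PSMB8. The part of these overlaps in their counts was not tested.

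Set against its constitutive counterpart, each immunoproteasome subunit shifted, and not all in the same direction. The log2 ratio of PSMB8 over PSMB5 was -0.35, -0.30 and -0.44 in siRNA-1 libraries and -0.87, -0.66 and -0.91 in siCTRL libraries, a difference of 0.45 that follows the fall of PSMB5. The log2 ratio of PSMB9 over PSMB6 was -1.93, -2.02 and -1.90 in siRNA-1 libraries and -1.42, -1.22 and -1.46 in siCTRL libraries, a difference of -0.58. The log2 ratio of PSMB10 over PSMB7 was -4.48, -4.46 and -4.27 in siRNA-1 libraries and -3.86, -3.51 and -3.70 in siCTRL libraries, a difference of -0.71. No ratio overlapped between the groups. Exact two-sided permutation tests gave p = 0.1 for each of the 3 ratios, also after adjustment over the 3, and 0.1 is the smallest p that 3 libraries against 3 allow. Per kilobase of the longest coding transcript, PSMB8 averaged 66.0 CPM in siRNA-1 cells and 66.2 CPM in siCTRL cells, while PSMB5 averaged 88.7 CPM per kilobase in siRNA-1 cells and 122 in siCTRL cells. PSMB10 averaged 9.82 CPM per kilobase in siRNA-1 cells and 14.3 in siCTRL cells, against PSMB7 at 258 in siRNA-1 cells and 230 in siCTRL cells. Another gene covers 58.3% of the coding bases of PSMB10, so its level and its ratio to PSMB7 are uncertain.

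**Figure D4:**
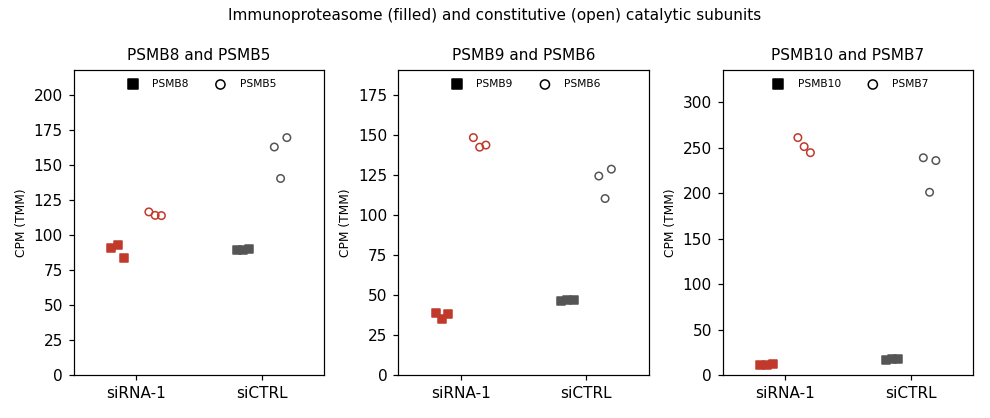
CPM of the 3 active constitutive subunits and the immunoproteasome subunits that replace them, by library (1 point each), siRNA-1 left of siCTRL. PSMB5 averages 115 CPM in siRNA-1 cells and 157 CPM in siCTRL cells, while PSMB8 averages 89.2 CPM in siRNA-1 cells and 89.4 CPM in siCTRL cells.

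In the base of the regulatory particle, rises and falls were mixed, with 5 of the 9 subunits higher and 2 lower. PSMC6, an ATPase of the ring, rose most: it had 90.7, 95.0 and 97.7 CPM in siRNA-1 libraries and 64.4, 65.9 and 67.1 CPM in siCTRL libraries. The groups were far apart, with a log2 fold change of 0.52 (SE 0.058, edgeR adjusted p = 9.55e-06). The scaffold subunit PSMD2, which binds substrate carriers and deubiquitinases, went the other way, with 485, 492 and 480 CPM in siRNA-1 libraries and 744, 620 and 751 CPM in siCTRL libraries. It lies on chromosome 3 from 184298709 to 184309054 on the plus strand. Even siCTRL 2, the lowest control, lay well above all siRNA-1 libraries, and the log2 fold change was -0.54 (SE 0.070, edgeR adjusted p = 3.39e-05). PSMD1, the other large scaffold of the base, averaged 199 ± 9.39 CPM in siRNA-1 cells and 199 ± 9.09 CPM in siCTRL cells (edgeR adjusted p = 0.978).

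The ATPases next to PSMC6 changed by less. PSMC4 rose 1.20-fold and PSMD4, a ubiquitin receptor of the base, rose 1.24-fold. PSMC3 and PSMC5 each rose 1.12-fold, and PSMC2 fell 1.14-fold, to 198 ± 2.47 CPM in siRNA-1 cells against 225 ± 14.2 CPM in siCTRL cells. Without siCTRL 2 the log2 fold changes of PSMD4 and PSMC3 were 0.20 and 0.10, against 0.31 and 0.16 with it. The 3 small differences of PSMC2, PSMC3 and PSMC5 depended on single libraries. PSMC2 missed the threshold without siRNA-1 1 or 2 or siCTRL 1 or 3 (edgeR adjusted p = 0.0525, 0.0624, 0.0600 and 0.0530). PSMC3 missed it without siRNA-1 1, 2 or 3 or siCTRL 1 (edgeR adjusted p = 0.104, 0.0536, 0.0523 and 0.0543). PSMC5 missed it without siRNA-1 1 or siCTRL 1 (edgeR adjusted p = 0.0697 and 0.117). PSMC1, whose transcript shares 97.5% of its 50-base stretches with other transcripts, had only 1.98 to 2.49 CPM over all libraries and did not pass (edgeR adjusted p = 0.788).

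In the lid all 8 subunits were called, 7 higher (87.5%) and 1 lower (12.5%), against 31.5% and 31.0% of all genes tested. PSMD8 rose most, with 283, 269 and 266 CPM in siRNA-1 libraries and 205, 196 and 205 CPM in siCTRL libraries. The groups did not overlap (log2 fold change 0.43, SE 0.052, edgeR adjusted p = 1.86e-05). PSMD7, which pairs with the deubiquitinase, rose 1.32-fold, PSMD13 1.25-fold, PSMD12 1.22-fold and PSMD11 1.19-fold. PSMD14, the metalloprotease that removes ubiquitin chains from the substrate, rose 1.16-fold (edgeR adjusted p = 0.00612). PSMD6 rose 1.13-fold, but missed the threshold without siRNA-1 1, siRNA-1 3 or siCTRL 2 (edgeR adjusted p = 0.130, 0.0580 and 0.0505), where the last fit gave a log2 fold change of 0.11 in place of 0.18. PSMD3, a structural subunit whose gene lies on chromosome 17 from 39980797 to 39997960 on the plus strand, was the exception. It had 130, 133 and 131 CPM in siRNA-1 libraries and 171, 176 and 172 CPM in siCTRL libraries, with little spread in either group. PSMD3 fell with a log2 fold change of -0.40 (SE 0.050, edgeR adjusted p = 2.85e-05).

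Of the 4 activators 3 rose, and the inhibitor fell. PSME3, the subunit of the nuclear activator REG gamma, which opens the core without ubiquitin or ATP, had 338, 340 and 304 CPM in siRNA-1 libraries and 202, 160 and 202 CPM in siCTRL libraries. Each siRNA-1 library was above each control, and siCTRL 2 was again the lowest. The log2 fold change of 0.80 (SE 0.086, edgeR adjusted p = 7.86e-06) was the highest of all members and ranked 499 among the 3921 genes that rose. PSME3 lies on chromosome 17 from 42824385 to 42843758 on the plus strand. PSME4, the activator that binds acetylated histones, had 168, 172 and 169 CPM in siRNA-1 libraries and 126, 131 and 130 CPM in siCTRL libraries (1.32-fold, edgeR adjusted p = 3.12e-05).

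PSME1 and PSME2 form a joint ring that interferon induces, and they were not called alike. PSME2 had 136, 129 and 127 CPM in siRNA-1 libraries and 93.0, 101 and 90.0 CPM in siCTRL libraries, and rose 1.38-fold (edgeR adjusted p = 3.20e-05). PSME1 had 215, 212 and 200 CPM in siRNA-1 libraries and 193, 190 and 191 CPM in siCTRL libraries. Its groups did not overlap, but the log2 fold change of 0.13 missed the threshold (edgeR adjusted p = 0.0501), and passed without siRNA-1 3 or siCTRL 2 (edgeR adjusted p = 0.0430 and 0.0281). PSMF1, which inhibits the core in the test tube, had 70.5, 80.9 and 66.1 CPM in siRNA-1 libraries and 104, 94.8 and 101 CPM in siCTRL libraries. It was lower in every siRNA-1 library (log2 fold change -0.46, SE 0.077, edgeR adjusted p = 0.000241), and lies on chromosome 20 from 1113263 to 1189415 on the plus strand.

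The assembly factors held the member that changed most. PSMD10, known as gankyrin, escorts the ATPase PSMC4 during assembly of the base and also binds the retinoblastoma protein and MDM2, for which it is studied as an oncoprotein. It had 20.5, 19.3 and 20.6 CPM in siRNA-1 libraries and 75.9, 74.2 and 83.6 CPM in siCTRL libraries, from raw counts of 294, 292 and 303 in siRNA-1 libraries and 1109, 955 and 1124 in siCTRL libraries. The groups were separated by more than the whole range of either. PSMD10 fell 3.86-fold (log2 fold change -1.95, SE 0.074, edgeR adjusted p = 2.34e-09) and ranked 172 among the 3851 genes that fell. The gene lies on chromosome X from 108084207 to 108091618 on the minus strand, and only 3.47% of the 50-base stretches in its longest coding transcript occur in other transcripts. The other chaperones of the base did not share its size of change. PSMD5 fell 1.15-fold, with 79.6, 75.9 and 77.5 CPM in siRNA-1 libraries and 86.1, 90.4 and 92.4 CPM in siCTRL libraries (edgeR adjusted p = 0.00768). PSMD9 had 16.7, 19.7 and 17.9 CPM in siRNA-1 libraries and 19.4, 12.8 and 17.2 CPM in siCTRL libraries, overlapped and did not pass (edgeR adjusted p = 0.415).

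The chaperones of the core all rose. PSMG3 had 39.5, 39.4 and 39.2 CPM in siRNA-1 libraries and 26.7, 24.7 and 31.3 CPM in siCTRL libraries, so that nearly all of the spread was among the controls (log2 fold change 0.51, SE 0.089, edgeR adjusted p = 0.000334). Its partner PSMG4 rose 1.32-fold, and PSMG1 and PSMG2, which together seed the alpha ring, rose 1.38-fold and 1.23-fold. POMP, which helps the beta ring mature and is degraded by the finished core, had 134, 121 and 134 CPM in siRNA-1 libraries and 113, 98.4 and 115 CPM in siCTRL libraries. POMP was higher in each siRNA-1 library, by 1.19-fold (SE 0.071 on the log2 scale, edgeR adjusted p = 0.00886). Over the 8 assembly factors, 5 rose and 2 fell.

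**Figure D5:**
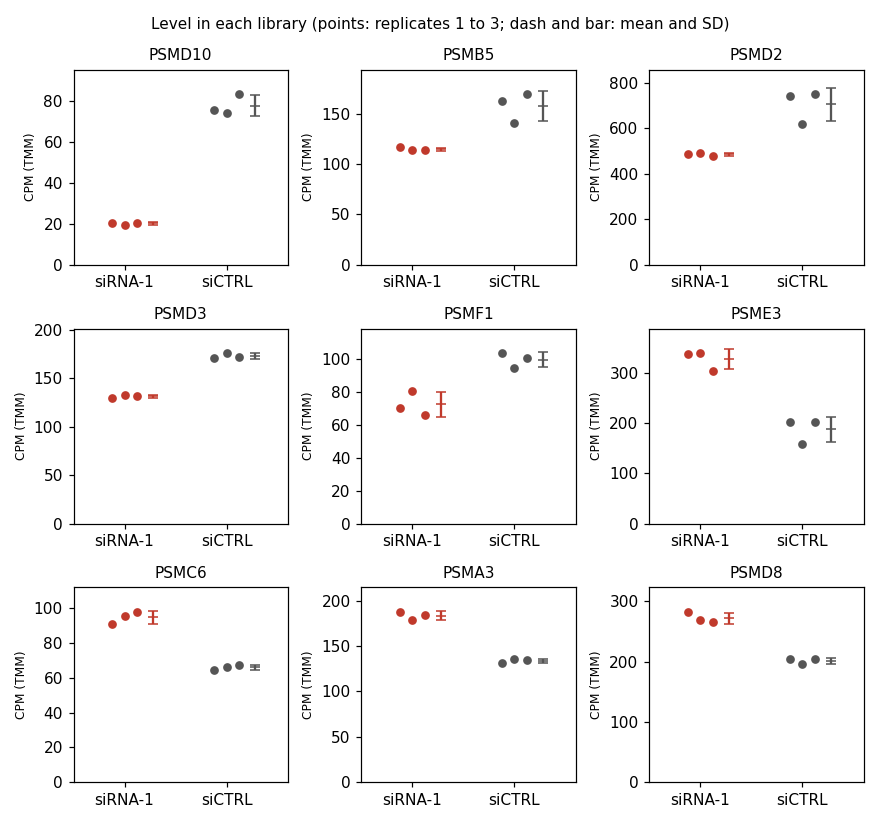
CPM of 9 members by library (points) with the group mean and SD, siRNA-1 left of siCTRL, each on its own axis from 0. PSMD10 averages 20.2 CPM in siRNA-1 cells and 77.9 CPM in siCTRL cells, and in none of the 9 do the groups overlap.

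Of the 2 genes that only share the naming pattern, PSME3IP1, which binds the activator PSME3, rose 1.39-fold, with 101, 93.3 and 87.7 CPM in siRNA-1 libraries and 70.7, 65.4 and 66.9 CPM in siCTRL libraries (edgeR adjusted p = 6.68e-05). PSMC3IP, a cofactor of meiotic recombination, did not pass (log2 fold change 0.26, edgeR adjusted p = 0.102), but passed without siCTRL 2 (edgeR adjusted p = 0.0406).

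The change of PSMD10 was compared with its neighbour, since the annotated start of ATG4A, a gene of autophagy, lies 50 bases away on the other strand. ATG4A averaged 24.8 ± 2.07 CPM in siRNA-1 cells and 21.8 ± 1.63 CPM in siCTRL cells (SD, n = 3 each) and did not pass (log2 fold change 0.18, edgeR adjusted p = 0.109). The mean of this neighbour was thus slightly higher, where that of PSMD10 was far lower. Starts were taken as the outer ends of the annotated genes, up to 1000 bases apart, so partners at inner starts were not sought. The promoters of PSMB9 and PSME3 examined below, for example, lie inside the annotated genes. Other members with a start close to that of a gene on the opposite strand were PSMA7 with SS18L1 (355 bases apart) and PSMB1 with TBP (961 bases apart). In both of these pairs both genes rose, as did PSMG2 with SPIRE1 and PSME3IP1 with RSPRY1. The pair of PSME4 and ACYP2 was not called alike. PSME4 rose, while ACYP2 did not pass (log2 fold change -0.18, edgeR adjusted p = 0.203). PSMA1 and PDE3B both did not pass, and MRPL32 rose beside PSMA2, which could not be tested.

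An siRNA can also lower unintended transcripts through matches of its seed in their 3' untranslated regions. The labels name siRNA-1 without its sequence. The 7-base word GCTCACT was therefore taken from earlier work on these same data, where it had been picked because transcripts that hold it fell, so the counts below describe the members and are no independent test. The word was searched in 3' untranslated regions of at least 50 bases on the sense strand, which 47 of the 48 tested members have, and 5 members held it. The sites of PSMD10, the member that fell most, and of PSMC2, which also fell, are printed with that of PSMB2, which rose, and the capitals mark the word within 10 bases on each side.
PSMD10: tgtttttcaaGCTCACTcaggcctacg
PSMC2: caacaaagtaGCTCACTtaggcgtatg
PSMB2: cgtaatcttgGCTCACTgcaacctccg

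PSMD10 and PSMC2 were 2 of the 9 members that fell, and PSMB2, PSMD12 and PSMG4 were 3 of the 28 with such a region that rose. None of the 10 that did not pass held the word. The word in the 3 genes that rose stands in the longer word GGCTCACTGCA, which Alu repeats carry, and the word in PSMD10 and PSMC2 does not. Over all 12275 genes with such a region, 52.0% of the 1808 that hold the word outside that longer word fell and 17.5% rose, while 27.0% of the 9940 without it fell and 34.6% rose. Of the 527 genes that hold it only within the longer word, 36.6% fell and 23.9% rose. The other 7 members that fell, among them PSMB5, PSMD2, PSMD3 and PSMF1, do not hold the word in this region. The part of the word in any of these changes was not tested.

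Promoters were examined for words that members with the same direction of change might share. RefSeq promoters of GRCh38.p14, from 250 bases before to 50 bases after the start, matched 40 of the 46 tested components, and motifs were searched on both strands. Some genes have several promoters. A gene was counted when any of its promoters held the word, so genes with more promoters had more chances to match. The antioxidant response element, the type of site that NFE2L1 binds, was searched as TGACNNNGC. It was found in 15 of the 40 genes (37.5%), compared with 19.3% of all tested genes with a promoter. These were 9 of 23 genes that rose, 3 of 9 that fell and 3 of 8 that did not pass. Examples from genes that rose (PSMA4, PSMB3 and PSMD12) and from 1 that fell (PSMD3) are shown to let the sites be compared, with the match in capitals and each sequence on the strand of its gene.
PSMA4, chr15:78540650-78540678, plus strand: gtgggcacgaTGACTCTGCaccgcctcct
PSMB3, chr17:38752627-38752655, plus strand: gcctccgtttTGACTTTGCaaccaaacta
PSMD12, chr17:67366724-67366752, minus strand: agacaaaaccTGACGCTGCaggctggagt
PSMD3, chr17:39980760-39980788, plus strand: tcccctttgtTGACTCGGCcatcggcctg

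The ETS word CCGGAAG was also found in 15 of the 40 genes (37.5%), compared with 22.5% of all tested genes with a promoter. These were 10 of 23 that rose, 2 of 9 that fell and 3 of 8 that did not pass. The word CCAAT, which NF-Y binds, was found in 18 of the 40 genes (45.0%), close to the 43.3% of all tested genes. It stood in 13 of 23 genes that rose, 5 of 9 that fell and none of 8 that did not pass. Matches are shown for 2 genes that rose (PSMA3 and PSME3) and for 2 that fell (PSMB5 and PSMD10), again with the match in capitals, where ATTGG is the same word on the other strand.
PSMA3, chr14:58244815-58244839, plus strand: ggcagttcagCCAATgagcgggcct
PSME3, chr17:42833375-42833399, plus strand: agtctcggcgATTGGctgtgacgca
PSMB5, chr14:23035370-23035394, minus strand: attattttacCCAATtttagaaggt
PSMD10, chrX:108091604-108091628, minus strand: aaggccggtgATTGGtgaagctcta

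The words therefore occurred in genes of both directions, and a match in these letters is a description of the sequence. The YY1 word AAGATGG was found in 8 genes (20.0%, against 9.36% of all tested genes). The word GCATGCGC of nuclear respiratory factor NRF1, another protein than NFE2L1, was found in 1 (2.5%, against 6.31%).

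NFE2L1 itself showed no detectable difference, with 438, 469 and 448 CPM in siRNA-1 libraries and 457, 462 and 436 CPM in siCTRL libraries, which overlapped. Its averages were 452 ± 15.9 CPM in siRNA-1 cells and 452 ± 13.8 CPM in siCTRL cells (edgeR adjusted p = 1.00). The factor is known to be controlled after translation, and 2 genes of that control, named as the largest rise and fall of their list, moved in opposite directions. SYVN1, the ubiquitin ligase of the endoplasmic reticulum that targets it, averaged 126 ± 1.41 CPM in siRNA-1 cells and 75.1 ± 1.90 CPM in siCTRL cells (1.67-fold, edgeR adjusted p = 3.12e-07). NGLY1, the glycanase that removes its sugars, averaged 31.8 ± 1.74 CPM in siRNA-1 cells and 49.9 ± 2.28 CPM in siCTRL cells (log2 fold change -0.65, edgeR adjusted p = 9.98e-06). Of the 10 regulators of proteasome transcription tested, 4 rose and 2 fell, which is close to the 62.5% of all genes that were called.

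Some genes that bring substrates to the proteasome were examined as a list of 10 ubiquitin shuttles and cofactors of the unfoldase VCP. The list was chosen with earlier results of these data known. All 10 were called, 8 higher and 2 lower, with a median log2 fold change of 0.36. Of all genes tested, 62.5% were called, 31.5% higher and 31.0% lower. FAF1, a VCP adaptor that binds ubiquitin, averaged 12.3 ± 0.838 CPM in siRNA-1 cells and 90.4 ± 7.17 CPM in siCTRL cells (log2 fold change -2.87, edgeR adjusted p = 7.04e-10). Its relative FAF2, which serves the endoplasmic reticulum, rose to 162 ± 7.24 CPM in siRNA-1 cells against 114 ± 2.98 CPM in siCTRL cells (1.42-fold, edgeR adjusted p = 8.82e-06). Of 13 other proteasome components and partners, 5 rose and none fell, so that 38.5% were called, below the 62.5% of all genes tested. Their median was 0.16, and ZFAND2A rose most (1.39-fold, edgeR adjusted p = 0.000849). By the same test without siCTRL 2, 6 of these rose and 2 fell, against 34.5% higher and 34.3% lower of all genes. Of 6 ubiquitin and ubiquitin-activating genes only the activating enzyme UBA1 passed, at 668 ± 15 CPM in siRNA-1 cells and 501 ± 19.7 CPM in siCTRL cells (1.33-fold, edgeR adjusted p = 2.16e-05). This 1 gene of 6 made 16.7% called, below the 62.5% of all genes tested. Without siCTRL 2, 2 of the 6 rose and 1 fell, against 34.5% higher and 34.3% lower of all genes.

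Of 11 genes of antigen processing, the pathway that the immunoproteasome feeds, 6 fell and 3 rose (median log2 fold change -0.34). These are 54.5% lower and 27.3% higher, against 31.0% lower and 31.5% higher of all genes tested. Without siCTRL 2, 8 fell and 3 rose, against 34.3% lower and 34.5% higher of all genes. TAPBP, which holds the peptide transporter to class I molecules, averaged 162 ± 3.13 CPM in siRNA-1 cells and 420 ± 5.65 CPM in siCTRL cells (log2 fold change -1.37, edgeR adjusted p = 1.87e-09). The transporter subunit TAP1, whose gene is next to PSMB8 and PSMB9, averaged 238 ± 15.1 CPM in siRNA-1 cells and 168 ± 11.8 CPM in siCTRL cells and rose 1.42-fold (edgeR adjusted p = 4.21e-05). The COP9 signalosome, whose architecture resembles the lid, had 3 of 10 subunits higher (30.0%) and 2 lower (20.0%). Of all genes tested, 31.5% were higher and 31.0% lower. The median log2 fold change of its subunits was 0.02, against 0.27 in the lid, where 7 of 8 were higher. The largest rise of the COP9 signalosome was COPS7B (39.1 ± 0.941 CPM in siRNA-1 cells and 24.6 ± 0.708 CPM in siCTRL cells, 1.59-fold, edgeR adjusted p = 7.82e-06). COPS9 was lower (log2 fold change -0.46, edgeR adjusted p = 0.0430), although its libraries overlapped, since siCTRL 2 had 18.2 CPM beside 32.8 and 33.0 CPM in siCTRL 1 and 3. Its adjusted p in edgeR lay between 0.0762 and 0.167 when any other single library was left out, and was 1.32e-11 without siCTRL 2, where its log2 fold change was -0.70. The COPS9 call was also lost with the replicate as a block (edgeR adjusted p = 0.0547), with library size only (edgeR adjusted p = 0.0594) and with limma-voom (adjusted p = 0.0773).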

How the data were processed

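Raw read counts per Ensembl gene were deposited by the authors for 6 libraries, made with HTSeq per the submitters' processing notes, which also name Trimmomatic, STAR, kallisto and the build hg38. Neither the annotation release, nor the strand setting, nor the counting mode is stated there. Symbols were matched by Ensembl identifier. GENCODE release 29 (GRCh38) gave positions, overlaps and 3' untranslated regions, and none of the 51 members carried the same identifier version there. RefSeq gave promoters.

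Genes were kept by edgeR's filterByExpr (minimum count 10, minimum total 15). Counts were scaled by TMM and tested with edgeR 4.0.16 (quasi-likelihood F test, R 4.3.3) on all 12440 genes, siRNA-1 over siCTRL, with Benjamini-Hochberg adjustment. Standard errors are the log2 fold change over the square root of F. The code was tested on simulated data. Named by rule in each class were the largest rise and fall past the threshold, the active subunits with their immunoproteasome counterparts, and PSME1 to PSME4, PSMF1, POMP, PSMD10 and NFE2L1; other members are given in brief. The members, lists and roles were chosen with earlier results of these data known. Alternatives were scaling, filters, DESeq2 1.42.0, limma-voom 3.58.1, a replicate block, a GC and length correction, a threshold of 0.01 and leaving out each library. A total of 3 counts was taken as the detection floor; it covers counting error only.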

Additional observations from a re-analysis of the deposited data

How the results depend on the processing

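Over the alternatives run, 6206 to 8635 of all genes were called, 26 to 32 members rose and 8 or 9 fell, and the 3 immunoproteasome ratios kept their direction. The median log2 fold change of the tested members ranged between 0.19 and 0.28 over fits that each left out 1 library, and the 0.19 was without siCTRL 2. Leaving out the 6 members with more than 40% of their coding bases shared, chosen after seeing the data, gave 29 higher, 8 lower and a median of 0.26. Replicate numbers did not pair the libraries: deviations of same-numbered libraries correlated at 0.067, -0.078 and -0.057, and with the replicate as a block 7535 genes were called, 29 members rose and 9 fell, with a median of 0.26. Signs turned only for genes near 0 that were not called. These were PSMB8 (0.033 with library size only, 0.0073 with no filter, -0.030 to 0.044 leaving out 1 library), PSMD1 (0.036, 0.0091, 0.054 with the GC and length correction, -0.053 to 0.034 leaving out 1 library), PSMC1 (-0.014 to 0.15 leaving out 1 library) and PSMD9 (-0.029 to 0.26 leaving out 1 library). NFE2L1 gave -0.0068 with DESeq2 size factors, -0.0067 with the DESeq2 Wald test, -0.037 with a mean of at least 100 counts, -5.4e-05 with limma-voom, -0.00017 with the block, and -0.028 to 0.026 leaving out 1 library. PSMB4 passed with library size only, PSMB7 with library size only, no filter or limma-voom, and PSME1 with library size only or limma-voom. With a mean of at least 100 counts PSMC3, PSMC5 and PSMD6 lost their calls (edgeR adjusted p = 0.0653, 0.0509 and 0.0693), PSMC3 also with the GC and length correction (0.0565) and PSMD6 with the DESeq2 Wald test (0.0548). At a threshold of 0.01 PSMC2, PSMC3, PSMC5 and PSMD6 were not called. The causes were not tested. Among members with any counts, PSMC1, PSMA6 and PSMA2 had the fewest.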
